A study of Mus musculus with 2 samples.

Results

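The expression of 10 genes of cell adhesion was followed across the cells of femoral bone marrow stroma. The genes were Vcam1, Icam1, Alcam, Jam2 and Jam3 of the immunoglobulin superfamily, the cadherins Cdh2, Cdh5, Cdh11 and Cdh13, and the selectin Sele. They were taken by exact gene symbol, and all 10 were found among the 28006 features of the tables. Cells came from the femurs of 2 mice of 1 group at postnatal day 28, 1 library per mouse, so classes of cells were compared, and not groups of animals. Both mice carried Cxcl12(GFP/+), in which 1 Cxcl12 allele expresses eGFP, a Cxcl12-iCreER transgene made from a bacterial artificial chromosome, and R26R(tdTomato/+), and both received tamoxifen at postnatal day 21. The distal growth plate and the proximal end of each femur had been cut away, and the remaining bone was digested with enzymes before the sort. The labels disagree on that sort: the extraction text has tdTomato+ cells, other fields have GFP+ cells, and the libraries were taken as GFP+ sorts.

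Adhesion molecules tether the cells of the marrow to each other and hold blood cells in contact with their niche. Vcam1 and Icam1 bind integrins on leukocytes and blood progenitors, selectins of the vessel wall catch rolling leukocytes, and junctional adhesion molecules sit at contacts between endothelial cells and between stromal and blood cells. Classical cadherins bind cadherins of the same kind on the next cell and are anchored to the actin skeleton through catenins, so the cadherin that a cell makes is a mark of the cells it can adhere to.

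The libraries held 54940400 UMIs (Mouse #1) and 88790688 UMIs (Mouse #2), where a UMI is a tag that counts 1 captured transcript once. Barcodes with 1000 or more genes and no more than 15% of UMIs from mitochondrial genes were kept as cells, 2750 and 4582 of them, with median depths of 12966.5 and 12190 UMIs. The libraries shared 7 cell barcodes, where 1.85 were expected by chance. The cells formed 17 clusters, named from markers, and the 10 genes and 56 other adhesion genes had been left out of the clustering, although genes that vary with them had not. The reticular-like class held 1251 and 2430 cells, the preosteoblast-like class 410 and 784, the osteoblast-like class 14 and 61, and the periosteal-like class 78 and 238. Endothelial-like cells fell into an arterial-type cluster (122 and 109 cells) and a small sinusoidal-type cluster (29 and 28 cells). The names rest on markers, which are therefore no test of them. Among these, Adipoq stood at 1843 and 1764 CPM (counts per 1000000 UMIs of the class) in reticular-like and 381 and 323 in preosteoblast-like cells, Alpl at 961 and 1154 in preosteoblast-like and 55.4 and 37.4 in reticular-like cells, and Bglap2 at 15965 and 10749 in osteoblast-like and 82.5 and 293 in preosteoblast-like cells. Dpt was low, at 6.42 and 15.4 CPM in periosteal-like cells, against 0 and 1 UMIs in reticular-like cells. Gja5 stood at 118 and 162 CPM in arterial-type cells against 0 UMIs in sinusoidal-type cells, and Stab2 at 933 and 781 in sinusoidal-type against 3.46 and 0 in arterial-type cells. Myeloid, lymphoid and erythroid cells that had come through the sort (611 and 624) served as a background, since free RNA puts UMIs into cells that do not transcribe a gene. Levels below are CPM in Mouse #1 and then in Mouse #2, and shares of cells with a UMI were taken after each cell was thinned to 2000 UMIs.

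Vcam1, the integrin ligand by which marrow stroma is often recognised, was highest in reticular-like cells, at 1907 and 1801 CPM. It stood at 606 and 759 in macrophage-like cells, 526 and 631 in the periosteal-like class, 481 and 592 in sinusoidal-type cells and 516 and 399 in preosteoblast-like cells. The values of the 2 mice overlapped between neighbours in this order, although macrophage-like cells lay wholly above sinusoidal-type and preosteoblast-like cells, and periosteal-like above preosteoblast-like cells. Reticular-like cells stood above all 4 in both libraries. Arterial-type cells held 81.6 and 124 CPM and osteoblast-like cells 23.0 and 27.8, beside a blood background of 141 and 100. A Vcam1 UMI was found in 91.7% and 92.6% of reticular-like cells (1238 of 1251 and 2415 of 2430 cells without thinning) and in 55.2% and 46.4% of sinusoidal-type cells (89.7% and 89.3%). In arterial-type cells the share was 9.84% and 10.1% and in osteoblast-like cells 7.14% and 3.28%, against 9.66% and 11.1% in the blood background, so expression in these 2 classes could not be told from the blood background at this depth. The background is itself uneven, with Vcam1 at 178 and 149 CPM in myeloid-like, 193 and 67.7 in lymphoid-like and 56.0 and 65.3 in erythroid-like cells, and arterial-type cells lay above the last of these in both mice. Without thinning the shares were 21.3% and 33.0% in arterial-type cells, 57.1% and 37.7% in the deeper osteoblast-like cells and 24.2% and 26.1% in the background. Median depths were 9726 and 10901 UMIs in arterial-type cells and 10330 and 10516 in the blood background. Free RNA, read from barcodes of 1 to 100 UMIs, held Vcam1 at 768 and 711 CPM. The antisense gene Gm43109, which overlaps Vcam1 on the other strand (Vcam1 lies at chr3:116109949-116129688, minus strand, mm10), had only 1 and 2 UMIs in reticular-like cells.

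Icam1, the ligand of leukocyte β2 integrins (chr9:21015985-21028817, plus strand), had another order. It was highest in sinusoidal-type cells, at 529 and 359 CPM, followed by periosteal-like cells at 155 and 134, arterial-type cells at 111 and 69.5, and reticular-like cells at 39.6 and 34.7. The 2 mice did not overlap between any of these neighbours. Preosteoblast-like cells held 12.7 and 7.74 CPM, and osteoblast-like cells held 0 UMIs in Mouse #1, which allows up to 5.74 CPM, and 1 UMI in Mouse #2. A UMI was found in 48.3% and 46.4% of sinusoidal-type cells (82.8% and 78.6% without thinning), in 17.9% and 16.0% of periosteal-like cells and in 7.45% and 6.22% of reticular-like cells, with 1.31% and 2.09% in the blood background. Without thinning, 58 of 78 and 131 of 238 periosteal-like cells had a UMI, and the shares were 27.7% and 25.3% in reticular-like cells and 5.56% and 6.89% in the background. Arterial-type cells had a UMI in 7.38% and 8.26% of cells, or 26.2% and 32.1% without thinning. By share they thus overlapped with reticular-like cells, although their level was higher. Icam1 was thus low in the class with the highest Vcam1, and the ratio of sinusoidal-type to reticular-like cells was 13.3 (95% counting interval 11.5 to 15.5) and 10.3 (8.67 to 12.3).

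Sele, the endothelial selectin that catches rolling leukocytes (chr1:164048234-164057677, plus strand), had most of its UMIs in the sinusoidal-type cluster. That cluster held 51 and 61 UMIs, or 110 and 142 CPM, in 16 of 29 and 20 of 28 cells. Arterial-type cells had 5 and 1 UMIs, reticular-like cells 1 and 1, macrophage-like cells 1 and 0, and the blood background 2 and 2. The preosteoblast-like class had 0 UMIs in both mice, which allows up to 0.422 and 0.209 CPM, and the osteoblast-like and periosteal-like classes had none either. After thinning, a Sele UMI remained in 13.8% (95% Wilson interval 5.50 to 30.6%) and 17.9% (7.88 to 35.6%) of sinusoidal-type cells (55.2% and 71.4% without thinning). In the thinned blood background 0 of 611 and 0 of 622 cells had one, which allows a share of up to 0.491% and 0.482% when 3 cells are taken as the limit of a count of 0. The 5 cells richest in Sele held 74.5% and 50.8% of the UMIs, and no cell held more than 13 of them.

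Because Icam1 and Sele had their highest level in the same cluster, the 250 bases before the RefSeq start of each gene are shown (GRCm38.p6, plus strand). The window of Icam1 is chr9:21015690-21015939 and that of Sele is chr1:164047984-164048233. Capitals mark matches to 3 motifs searched on both strands: GGGNNNNNCC and GGANNTTCC, forms of the site that NF-κB factors bind, and TATAAA, the TATA box. The second form was chosen after these sequences had been read. Of the 10 genes, 3 had a promoter in the RefSeq table, the third being Alcam. The window of Alcam, searched for the same 3 motifs, held no match.
Icam1: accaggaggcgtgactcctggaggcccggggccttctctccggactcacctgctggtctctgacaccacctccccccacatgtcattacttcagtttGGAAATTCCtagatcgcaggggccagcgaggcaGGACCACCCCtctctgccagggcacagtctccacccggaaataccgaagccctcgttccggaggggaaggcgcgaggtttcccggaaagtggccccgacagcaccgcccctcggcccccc
Sele: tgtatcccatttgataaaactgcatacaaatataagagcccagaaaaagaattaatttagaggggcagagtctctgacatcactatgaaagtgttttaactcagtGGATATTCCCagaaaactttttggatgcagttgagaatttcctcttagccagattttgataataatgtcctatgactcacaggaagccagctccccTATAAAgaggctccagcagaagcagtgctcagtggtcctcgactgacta
The Icam1 window held GGAAATTCC 153 to 145 bases before the start, which matched the second form on both strands. It also held GGACCACCCC, read on the plus strand, at 120 to 111. The Sele window held GGATATTCCC at 145 to 136, where both forms overlap on opposite strands, and TATAAA at 49 to 44. Of 32851 promoters of the same table, 45.8% held GGGNNNNNCC, 3.59% held GGANNTTCC and 12.4% held TATAAA. A match to the first motif is therefore common. A match is a description of the letters and was not read as a bound site.

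Alcam, a ligand of CD6 that also binds itself, was low in most of the stroma. Reticular-like cells held 2.99 and 3.72 CPM, preosteoblast-like cells 1.97 and 1.12, and arterial-type cells 2.07 and 1.35. Its highest levels were in macrophage-like cells, at 31.2 and 25.5, myeloid-like cells, at 26.1 and 23.4, and osteoblast-like cells, at 26.8 and 12.1, and these 3 classes overlapped between mice. The osteoblast-like values rested on 14 and 33 UMIs, and in Mouse #1 all of them lay in 4 of 14 cells. The ratio of osteoblast-like to preosteoblast-like cells was 13.6 (6.02 to 30.8) and 10.8 (5.80 to 21.1), and it was not tested across mice.

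Jam2 and Jam3, which bind each other across cell contacts, were distributed differently. Jam2 was highest in arterial-type cells, at 261 and 142 CPM, then in osteoblast-like cells at 24.9 and 33.3. Sinusoidal-type cells held 2.15 and 23.3, and the periosteal-like class 8.56 and 9.51. Reticular-like cells held 2.26 and 3.06 CPM. The arterial-type cells stood above every other class in both mice, a UMI was found in 36.9% and 35.8% of them (75.4% and 67.0% without thinning), and none of the thinned blood cells had one. In sinusoidal-type cells of Mouse #2, all 10 UMIs lay in 4 of 28 cells. Jam3 was more even, at 39.2 and 37.5 CPM in the periosteal-like class, 37.1 and 39.0 in preosteoblast-like cells and 31.1 and 37.1 in reticular-like cells. Arterial-type cells had 27.0 and 13.5, sinusoidal-type cells 8.60 and 16.3 and osteoblast-like cells 7.66 and 11.4, against a blood background of 2.68 and 2.06. The periosteal-like and preosteoblast-like values overlapped, and those of the 2 endothelial types overlapped. Antisense genes are also annotated over Icam1 (Gm47079) and Jam3 (Gm48796) and were not among the features, so reads of theirs could not have been told from those of the 2 genes if strand was not used in counting.

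**Figure D1:**
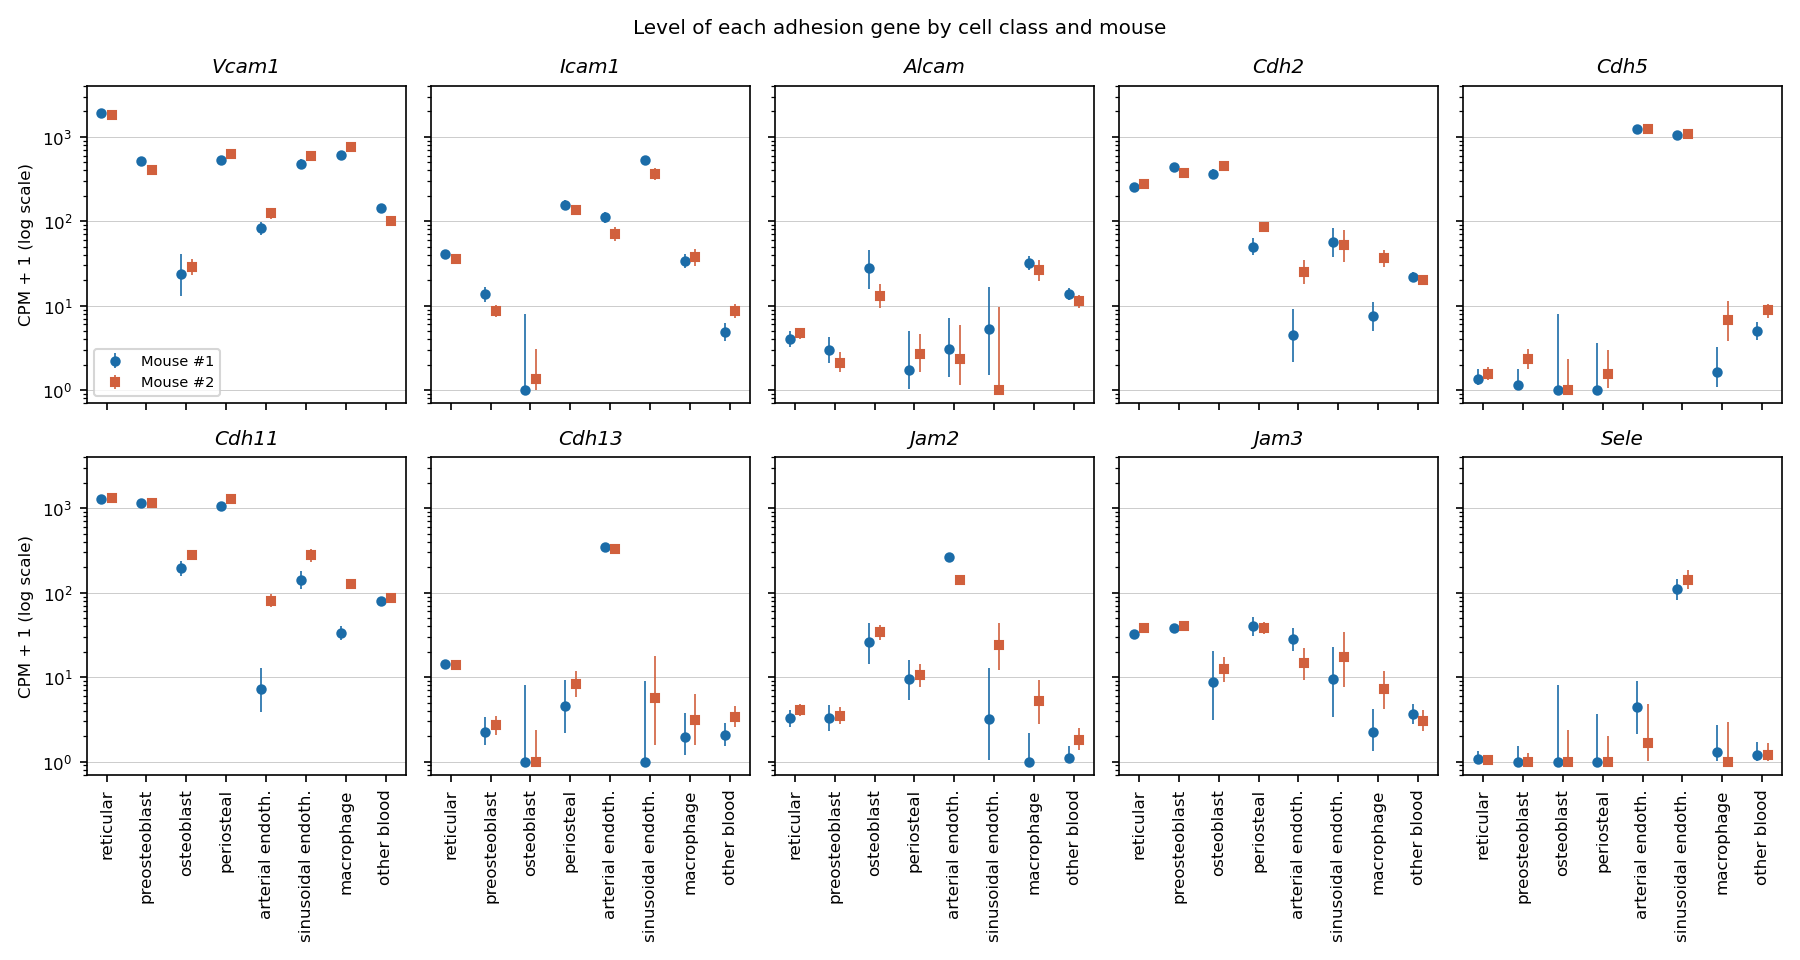
Level of the 10 adhesion genes, as CPM + 1 on a log axis, in 8 cell classes of Mouse #1 (circles) and Mouse #2 (squares), with 95% Poisson intervals that cover counting error only. Class names stand without "-like" and "-type", and "other blood" is the myeloid, lymphoid and erythroid background. Vcam1 peaked in reticular-like cells, Icam1 and Sele in sinusoidal-type cells, and Cdh13 and Jam2 in arterial-type cells.

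Among the cadherins, Cdh11 (osteoblast cadherin, chr8:102632095-102785642, minus strand) was shared by 3 stromal classes. Its level was 1274 and 1309 CPM in the reticular-like class, 1062 and 1282 in the periosteal-like class, and 1153 and 1147 in preosteoblast-like cells, and neighbours in this order overlapped between mice. Osteoblast-like cells held 193 and 276 CPM, below the other stromal classes in both mice. A Cdh11 UMI was found in 85.9% and 88.7% of reticular-like cells, 85.6% and 83.1% of preosteoblast-like cells and 88.5% and 88.6% of periosteal-like cells, but in 35.7% and 39.3% of osteoblast-like cells. The median depth of osteoblast-like cells, 32969 and 46370 UMIs, was the highest of the stromal classes, and without thinning 92.9% and 96.7% of them had a UMI. Arterial-type cells had a UMI in 0.820% and 5.50% of cells, under the 5.73% and 9.65% of the blood background (4.92% and 23.9% against 17.5% and 23.4% without thinning), and their level differed between mice, at 6.22 and 79.7 CPM. In Mouse #2, 79.7% of these UMIs lay in 5 of 109 cells. Free RNA held Cdh11 at 685 and 811 CPM.

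Cdh2, N-cadherin (chromosome 18), was highest in the osteogenic classes. Preosteoblast-like cells held 437 and 373 CPM and osteoblast-like cells 364 and 447, with overlap, and reticular-like cells stood below both, at 256 and 274. Periosteal-like cells held 49.2 and 84.8 and sinusoidal-type cells 55.9 and 51.3, again with overlap. A UMI was found in 55.6% and 52.5% of preosteoblast-like cells, 57.1% and 59.0% of osteoblast-like cells, 38.3% and 41.1% of reticular-like cells and 6.41% and 14.3% of periosteal-like cells. In arterial-type cells the share was 0% and 0.917%, under the 1.64% and 2.25% of the blood background. Without thinning these shares were 95.6% and 96.3%, 100% and 100%, 85.2% and 88.5%, 43.6% and 52.1%, 1.64% and 5.50%, and 7.20% and 13.1%, in the same order.

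Cdh5, VE-cadherin, which holds endothelial junctions together (chr8:104101625-104144511, plus strand), had 1239 and 1247 CPM in arterial-type cells and 1064 and 1089 in sinusoidal-type cells. In reticular-like cells it had 6 and 17 UMIs in all, or 0.366 and 0.560 CPM, and osteoblast-like cells had none. A Cdh5 UMI was found in 88.5% and 88.1% of arterial-type and 82.8% and 85.7% of sinusoidal-type cells, against 0.491% and 0.804% of the blood background (97.5% and 99.1%, 96.6% and 100%, and 2.13% and 2.72% without thinning). Myeloid-like cells held 7.04 and 15.2 CPM, of which 94.3% in Mouse #1 lay in 5 of 263 cells. Both endothelial clusters thus carried Cdh5, which had not been used to form them, and arterial-type cells stood above sinusoidal-type cells in both mice.

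Cdh13, a cadherin without a transmembrane domain that is tethered by a lipid anchor and binds adiponectin (chr8:118283733-119324921, plus strand), split the endothelial cells. Arterial-type cells held 348 and 329 CPM, with a UMI in 46.7% and 41.3% of cells (86.1% and 86.2% without thinning), while sinusoidal-type cells had 0 and 2 UMIs. Reticular-like cells came next, at 13.1 and 12.9 CPM and 2.56% and 2.35% of cells (11.5% and 10.8% without thinning), above the blood background, where 0 thinned cells had one. Periosteal-like cells held 3.57 and 7.27, preosteoblast-like cells 1.27 and 1.67, and osteoblast-like cells 0 UMIs in both mice. The blood background held 1.05 and 2.41 CPM, so the preosteoblast-like level could not be told from it. The level in reticular-like cells was above those of the other stromal classes in both libraries.

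**Figure D2:**
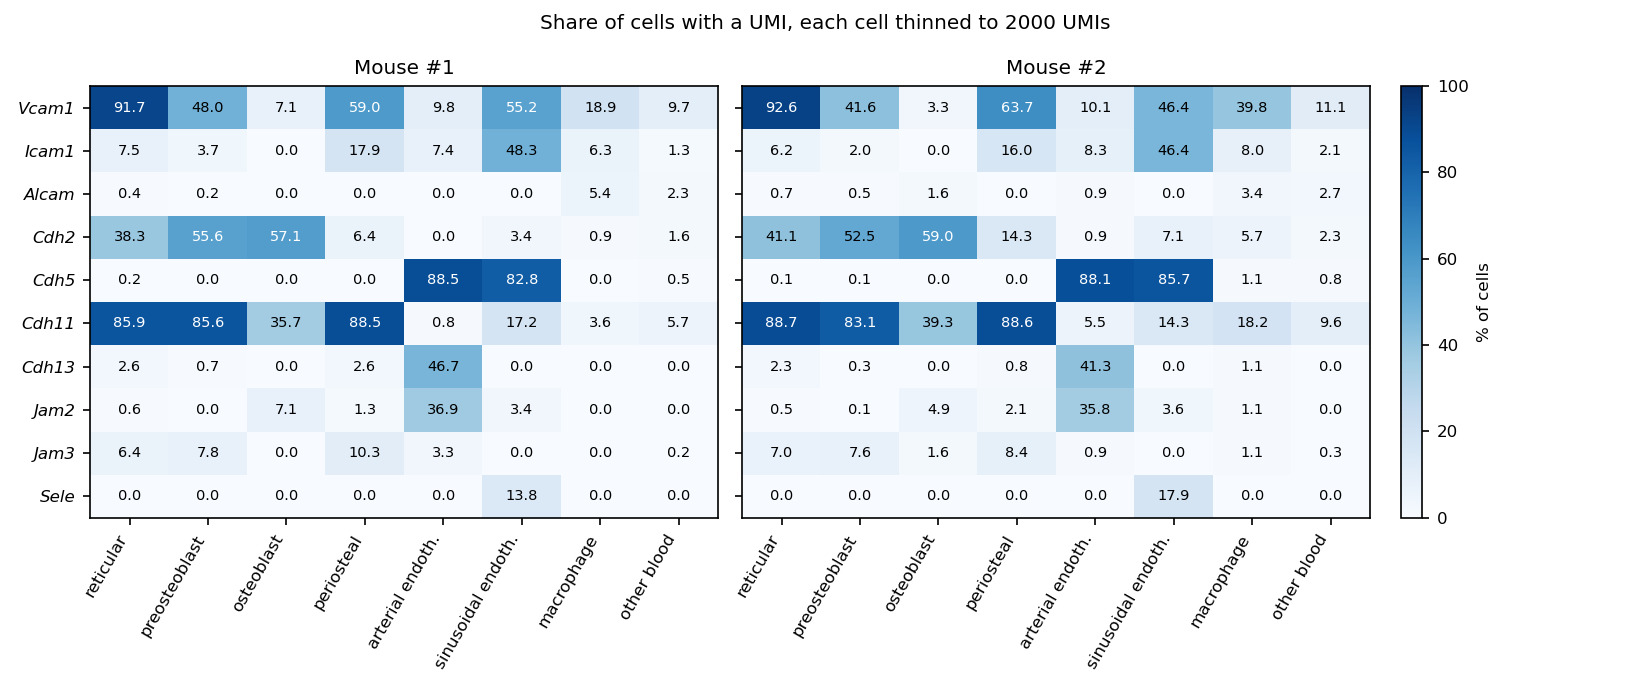
Percentage of cells with at least 1 UMI of each gene in 8 classes of Mouse #1 (left) and Mouse #2 (right), each cell thinned to 2000 UMIs. The cells of the 2 mice gave the same leading class for Vcam1 (91.7% and 92.6% of reticular-like cells), Cdh5 (88.5% and 88.1% of arterial-type cells) and Sele (13.8% and 17.9% of sinusoidal-type cells).

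From reticular-like to preosteoblast-like cells, Vcam1 and Icam1 were lower, and Cdh2 and Cdh11 were not called. Differences were tested on UMIs summed per mouse and class with the quasi-likelihood test of edgeR, with Benjamini-Hochberg adjustment over all genes and a call at an adjusted p under 0.05, and all fold changes are on the log2 scale with their SE. All 10 of the genes passed the filter on low counts in the fit of 4 classes, but Sele, and Cdh5 outside the endothelium, passed through the endothelial-like class alone. In preosteoblast-like against reticular-like cells 4 of 10 genes were called, all of them lower, where 26.9% of 12585 tested genes were called in either direction and 13.7% as lower. Vcam1 fell by 2.08 ± 0.17 (adjusted p = 7.71e-05 by edgeR), Icam1 by 1.98 ± 0.25 (0.000587) and Cdh13 by 3.13 ± 0.21 (2.84e-05). Alcam fell by 1.27 ± 0.40 (0.0424), a call that was lost with the looser cell filter (0.0743), with the highest doublet scores removed (0.0568) and in DESeq2 (0.115). Of the 2 classes compared, Cdh13 was high enough for the filter only in reticular-like cells, with 9 and 24 UMIs in preosteoblast-like cells. Alcam, with 14 and 16 UMIs there, was high enough in both mice only in reticular-like cells. The calls of Cdh13 and Alcam are therefore a description. Cdh2 differed by 0.55 ± 0.23 and was not called (0.115), although it was called with only the 2 classes in the fit (0.0176) and with no filter on low counts (0.0023). Cdh11 differed by -0.23 ± 0.36 (0.694), Jam3 by 0.10 ± 0.15 (0.694) and Jam2 by -0.23 ± 0.34 (0.673). The median over the 9 genes above the floor of 3 UMIs in some library was -0.23, beside 0.02 over all genes tested.

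Of the 56 other adhesion genes, 38 could be tested and 16 were called in preosteoblast-like cells, 12 as higher and 4 as lower. Of all genes tested, 26.9% were called, 13.2% as higher and 13.7% as lower. Cdh15, M-cadherin, was among the higher ones at 8.43 and 9.55 CPM against 0.732 and 0.395 (4.0 ± 0.40, adjusted p = 0.000306 by edgeR). Cadm1, an immunoglobulin-type molecule, stood at 36.1 and 16.1 against 2.14 and 2.27 (3.46 ± 0.37, 0.000255). Selp was also called, but from 1 and 13 UMIs against 2 and 1, so 1 mouse carried the difference. It passed the filter on low counts through the endothelial-like class. The genes called lower included Cdh4, R-cadherin, at 0.141 and 0.279 against 4.58 and 4.81 CPM (-4.32 ± 0.43, 0.000166), Pcdh1 (-1.09 ± 0.20, 0.00444) and the catenin Jup (-0.91 ± 0.17, 0.00419). Of the 2 classes compared, Cdh15 was high enough for the filter only in preosteoblast-like cells, and Cdh4 only in reticular-like cells. The calls of Cdh15 and Cdh4 are therefore a description. In level, Cdh2 and Cdh4, both classical cadherins, lay on opposite sides in these classes, Cdh4 with such a call and Cdh2 without one. By list, 4 of 15 tested immunoglobulin-type molecules, 4 of 7 cadherins, 2 of 5 catenins, 2 of 6 selectins and ligands and 4 of 5 counter-receptors were called.

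Periosteal-like cells had less Vcam1 and more Icam1 than reticular-like cells. Here 5 of 10 genes were called, 2 higher and 3 lower, with 22.1% of all tested genes called, 12.7% as higher and 9.49% as lower. Icam1 was higher by 2.02 ± 0.23 (adjusted p = 0.000341 by edgeR) and Jam2 by 1.82 ± 0.38 (0.00836), the latter from 12 and 34 UMIs. Vcam1 fell by 1.60 ± 0.17 (0.000238), Cdh2 by 1.86 ± 0.26 (0.000975) and Cdh13 by 1.02 ± 0.23 (0.0131). The Cdh13 call was lost with the highest doublet scores removed (0.0617). Cdh11 differed by -0.06 ± 0.36 (0.936), Jam3 by 0.23 ± 0.17 (0.383) and Alcam by -1.21 ± 0.56 (0.163). The median over 9 genes was -0.21, beside -0.01 over all genes. Of the other adhesion genes 9 of 38 were called. Cd34, a sialomucin, stood at 84.9 and 120 CPM against 0.183 and 0.296 (8.67 ± 0.33, 1e-06), Pcdh7 at 31.4 and 25.2 against 2.99 and 3.75 (3.09 ± 0.38, 0.000547) and Cadm1 was higher by 1.88 ± 0.49 (0.0232). Pcdh1 (-1.16 ± 0.33, 0.0335), the catenin Ctnnd1 (-0.90 ± 0.17, 0.00589) and Nectin2 (-0.81 ± 0.24, 0.041) were lower. Cd34 had only 3 and 9 UMIs in reticular-like cells, and its call is a description.

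Between endothelial-like and reticular-like cells 9 of 10 genes were called, 5 as higher and 4 as lower in endothelial-like cells. Cdh5 and Sele are among the 5, and they passed the filter through the endothelial-like class alone, so their calls are a description. Of all tested genes 49.7% were called, 25.1% as higher and 24.6% as lower. Cdh5 was higher by 11.17 ± 0.41 (adjusted p = 7.72e-08 by edgeR), Jam2 by 5.77 ± 0.27 (3.31e-07), Cdh13 by 4.26 ± 0.15 (7.6e-08) and Icam1 by 2.16 ± 0.23 (5.24e-05). Sele was called as higher (5.74e-06), and with 1 UMI in the reticular-like cells of each mouse its ratio was 480 (82.7 to 19287) and 986 (171 to 39562). Cdh11 fell by 4.04 ± 0.42 (4.22e-05), Cdh2 by 3.57 ± 0.29 (1.01e-05), Vcam1 by 3.24 ± 0.18 (1.05e-06) and Jam3 by 0.96 ± 0.20 (0.00338). Alcam, with 5 and 2 endothelial UMIs, differed by -0.94 ± 0.57 (0.197). The median over the 10 genes was 0.61, beside -0.05 over all genes. The remaining UMIs of Cdh2 and Cdh11 were concentrated, with 83.9% and 81.0% of the endothelial Cdh2 UMIs and 82.7% and 66.5% of the Cdh11 UMIs in 5 cells of each mouse.

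Of the 38 other adhesion genes tested, 28 were called in endothelial-like cells, 22 as higher and 6 as lower. Over all genes tested the share was 49.7%, with 25.1% called as higher and 24.6% as lower. Cd34 stood at 550 and 585 CPM and Podxl, podocalyxin, at 542 and 516, against values under 1 CPM in reticular-like cells (10.99 ± 0.33 and 10.79 ± 0.36). Selp, the selectin stored in endothelial granules, stood at 142 and 153 CPM against 2 and 1 UMIs. Cd34, Podxl and Selp had few or no UMIs in reticular-like cells, and their calls are a description too. The genes called lower included Ncam1, at 15.2 and 21.5 against 216 and 210 CPM (-3.60 ± 0.17, adjusted p = 4.08e-07 by edgeR), Pcdh18 (-2.90 ± 0.24, 9.36e-06) and the hyaluronan receptor Cd44 (-1.21 ± 0.32, 0.0113). Of the lists, 12 of 15 immunoglobulin-type molecules, 5 of 7 cadherins, 4 of 5 catenins, 5 of 6 selectins and ligands and 2 of 5 counter-receptors were called.

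**Figure D3:**
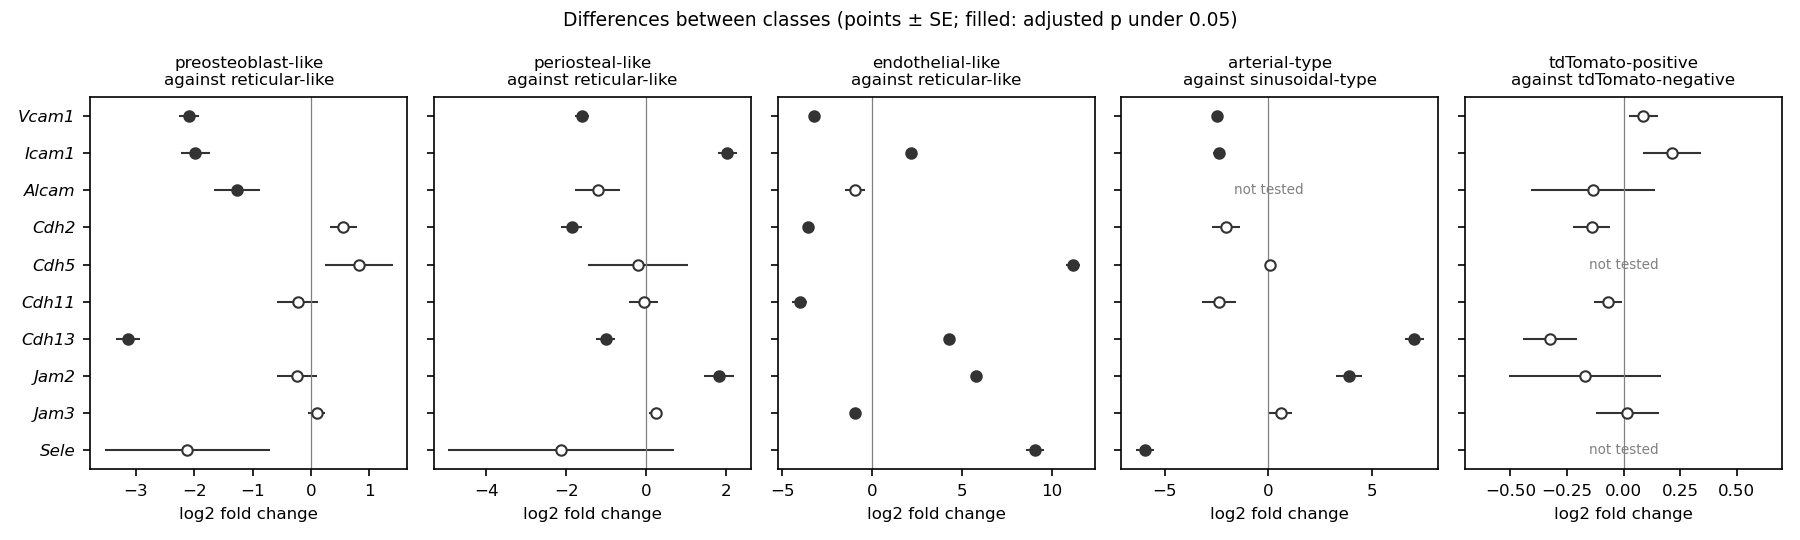
Log2 fold change ± SE of each gene in 5 comparisons, from edgeR on sums per mouse, with filled points where the adjusted p was under 0.05 and an axis of its own in each panel. Cdh11 was not called in preosteoblast-like or periosteal-like cells (-0.23 and -0.06), Vcam1 was called as lower in all 3 comparisons with reticular-like cells, and no gene was called between tdTomato-positive and tdTomato-negative cells. The points of Sele in the 2 left panels rest on 0 UMIs against 1 and 1 and give no fold change.

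Between the endothelial types, Vcam1, Icam1 and Sele were higher in sinusoidal-type cells, and Cdh13 and Jam2 in arterial-type cells, while Cdh5 was not called. Of 9 genes tested (Alcam had too few UMIs), 5 were called, 2 as higher and 3 as lower in arterial-type cells, with 21.1% of 8389 genes called, 9.36% as higher and 11.8% as lower. In arterial-type cells Vcam1 fell by 2.50 ± 0.25 (adjusted p = 0.000554 by edgeR), Icam1 by 2.41 ± 0.28 (0.00101) and Sele by 5.96 ± 0.45 (0.000166). Sele, Cdh13 and Jam2 passed the filter through 1 endothelial type each, so they could be tested only because that type was high. Jam2 had 1 and 10 UMIs in sinusoidal-type cells. The calls of these genes are a description. Jam2 was higher by 3.90 ± 0.62 (0.00441), a call that was lost with no filter on low counts (0.0624), and its ratio was 122 (21.7 to 4815) and 6.08 (3.24 to 12.9) in the 2 mice. Cdh13 was called as higher (9.84e-05), by at least 54.0-fold in Mouse #1, taking 3 UMIs as the floor of its empty sinusoidal library, and by 70.5 (19.4 to 584) in Mouse #2. Cdh5 differed by 0.10 ± 0.14 (0.686), with ratios of 1.16 (1.05 to 1.29) and 1.15 (1.03 to 1.27), and Jam3 by 0.60 ± 0.56 (0.511). The median over the 9 genes was -2.04, beside 0.03 over all genes.

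The stromal cadherins gave a call between the endothelial types only in some fits. Cdh2 stood at 3.46 and 24.3 CPM in arterial-type and 55.9 and 51.3 in sinusoidal-type cells (-2.04 ± 0.66, adjusted p = 0.0696 by edgeR), and Cdh11 at 6.22 and 79.7 against 142 and 275 (-2.38 ± 0.81, 0.0782). With the mouse as a replicate block both were called, Cdh2 at -2.21 (0.00632) and Cdh11 at -2.74 (0.000252), which made 7 of 9 genes where 23.3% of all genes were called. With the highest doublet scores removed both were called too, at -3.67 (0.000327) and -3.38 (0.000418). Without that removal, Cdh2 and Cdh11 passed the filter on low counts through sinusoidal-type cells, where they were higher. Their calls with the block are therefore a description. Of the Cdh11 UMIs of the sinusoidal-type cells, 90.9% and 79.7% lay in 5 cells of each mouse. The 8 reticular markers, none of which was at 0, summed to 2067 and 3435 CPM in sinusoidal-type cells, 442 and 589 in arterial-type cells, 1564 and 1356 in the blood background and 17429 and 15016 in reticular-like cells. The part of this stromal RNA in the Cdh2, Cdh11 and Vcam1 of sinusoidal-type cells was not tested.

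Of the other adhesion genes 16 of 31 were called between the endothelial types (19 with the block). Over all genes tested the share was 21.1% (23.3% with the block). Cd34, at 723 and 739 against 10.7 and 53.6 CPM (4.42 ± 0.46, adjusted p = 0.000672 by edgeR), Podxl, at 708 and 647 against 25.8 and 60.6 (3.87 ± 0.32, 0.000261), and the laminin receptor Bcam, at 182 and 121 against 2.15 and 11.7 (4.36 ± 0.51, 0.00111), were higher in arterial-type cells. Selp had 0 UMIs in the arterial-type cells of both mice and 582 and 683 CPM in sinusoidal-type cells, at least 281-fold and 337-fold higher against the floor of 3 UMIs per library (4.69e-05). Madcam1, an addressin for integrins of lymphocytes, also had 0 UMIs in arterial-type cells and 26 and 5 UMIs in sinusoidal-type cells, at least 26.9-fold and 5.76-fold higher (0.008). Ctnnal1, a relative of α-catenin, stood at 6.22 and 2.70 against 150 and 138 CPM (-5.09 ± 0.33, 9.51e-05). Selp, Madcam1 and Ctnnal1 passed the filter on low counts through sinusoidal-type cells alone. Bcam, with 1 and 5 UMIs in sinusoidal-type cells, passed it through arterial-type cells. These genes were tested only because they were high in that type, and their calls are a description. Cd34 and Podxl can carry selectin ligands.

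Within the reticular-like class, Vcam1 was present in all 4 clusters. The class held a Ccl2-led cluster (708 and 1282 cells), an Atcayos-led cluster with Bmp4 (319 and 491), a Kcne4-led cluster with heat shock genes (183 and 612) and a Cxcl9-led cluster (41 and 45). Vcam1 stood at 1813 and 1696 CPM, 2026 and 1859, 2211 and 2011, and 1289 and 1186 in these clusters, and the order was the same in both mice. The lowest values belonged to the Cxcl9-led cluster, whose median depth was 4029 and 3481 UMIs, against 10450 to 13770.5 in the other 3. Icam1 was highest in the Ccl2-led cluster, at 46.9 and 39.1 CPM, against 25.4 and 25.4 in the Atcayos-led cluster, a ratio of 1.84 (1.47 to 2.33) and 1.54 (1.29 to 1.85). Beside it, the 8 genes of an inflammatory response list summed to 2853 and 3752 CPM in the Ccl2-led cluster and 694 and 1043 in the Atcayos-led cluster, but also to 2788 and 3471 in the Kcne4-led cluster, where Icam1 stood at 29.8 and 33.2. Their part in the difference was not tested. Cdh11 was highest in the Atcayos-led cluster, at 1484 and 1429 CPM, against 1212 and 1268 in the Ccl2-led one, and Cdh2 stood at 313 and 310 against 236 and 264. Cycling cells led by Acta2 (66 and 82 cells, left without a class) had 323 and 285 CPM of Vcam1, 320 and 348 of Cdh2 and 801 and 691 of Cdh11.

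**Figure D4:**
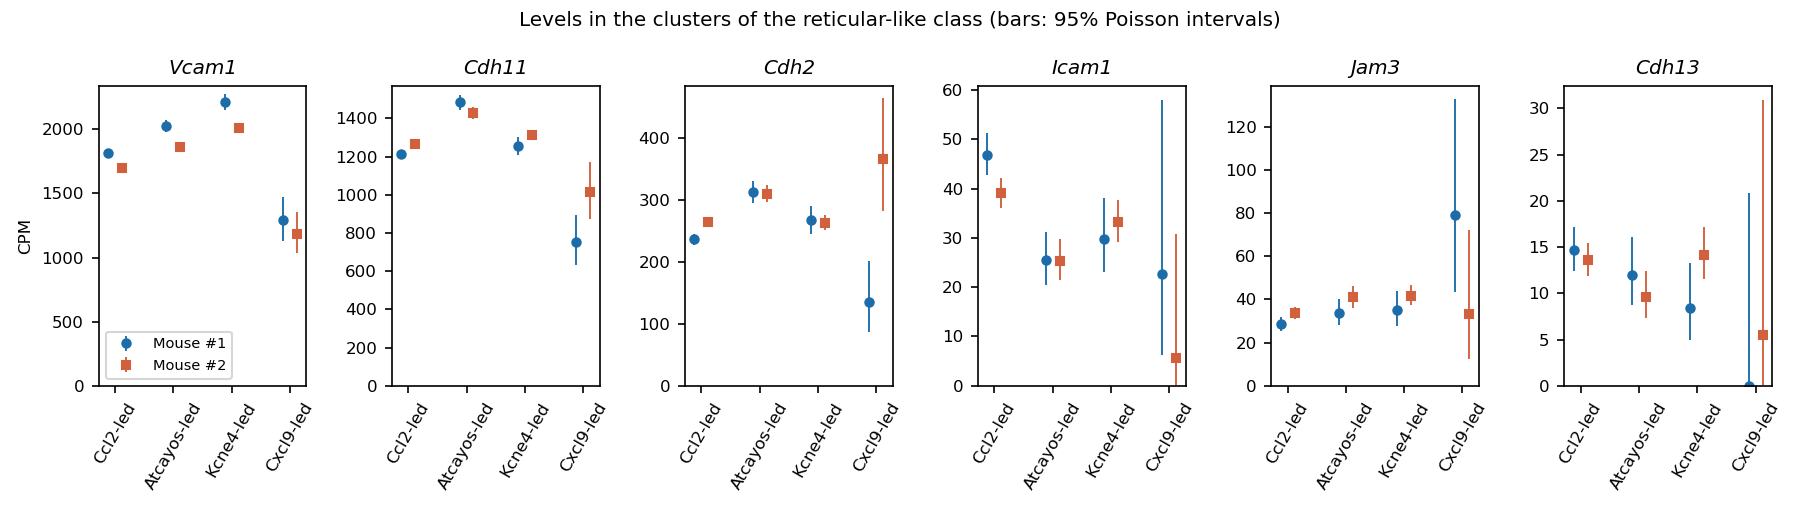
CPM of 6 genes in the 4 clusters of the reticular-like class, named by a leading gene, in Mouse #1 (circles) and Mouse #2 (squares), with 95% Poisson intervals. In both mice Vcam1 was lowest in the Cxcl9-led cluster (1289 and 1186 CPM), Cdh11 was highest in the Atcayos-led cluster (1484 and 1429 CPM) and Icam1 was highest in the Ccl2-led cluster (46.9 and 39.1 CPM).

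No difference in these genes was called between reticular-like cells with and without the tdTomato reporter. A cell was counted as tdTomato-positive when its tdTomato UMIs per 10000 passed the 99th percentile of blood cells of its mouse, which gave 489 and 1102 positive and 762 and 1328 negative cells. Of 8 genes tested (Cdh5 and Sele had too few UMIs), 0 were called by edgeR, where 0% of 12289 genes were called and 451 had an unadjusted p under 0.05. Among the 8, only Cdh13 had an unadjusted p under 0.05 (0.0369), at 11.2 and 11.2 CPM with the reporter and 14.4 and 14.3 without it. Vcam1 levels were 1948 and 1845 CPM with it, against 1880 and 1764 (0.09 ± 0.07), those of Cdh2 240 and 255 against 267 and 289 (-0.14 ± 0.08), and those of Cdh11 1222 and 1260 against 1308 and 1350 (-0.07 ± 0.06), so the direction was the same in both mice for each of the 3. With the mouse as a replicate block 525 genes (4.27%) were called, 0 of the 8 among them, with blocked adjusted p of 0.0717 for Cdh2, 0.159 for Vcam1 and 0.183 for Cdh13. DESeq2 called 8 genes, none of the 8 tested here. Of 26 other adhesion genes tested 0 were called, and 5 with the block.

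Genes whose levels followed those of the main cadherins and of Vcam1 were ranked by Pearson's r of log2(CPM + 1) over 18 sums (9 classes in 2 mice) among 13305 genes, where sums of 1 mouse share a library. Nearest to Vcam1 were Trf (0.946), Mtap7d3 (0.944) and Ifnar2 (0.943), and nearest to Cdh2 were Sdk2 (0.976), Pdk4 (0.970) and Wnt4 (0.954). Sema3g (0.994), Cldn5 (0.984) and Filip1 (0.983) were nearest to Cdh5, and Col6a1 (0.989), Zfhx4 (0.985) and Rbms3 (0.982) to Cdh11. These values describe likeness over the classes and were not tested.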

How the data were processed

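Droplet libraries of the 10x 3' v3 kind were made from femoral Cxcl12-GFP+ cells of 2 mice. The values deposited by the authors are raw UMI counts per gene and barcode, made with Cell Ranger 3.0.0 per the file headers on the mm10 genome with added reporter sequences, for 6794880 barcodes without a filter for cells. The annotation release is not given in the sources used here, and gene positions are from GENCODE M21. Counts were filtered as in the study, scaled to 10000 per cell and clustered (scanpy 1.11.5, leidenalg 0.10.2, resolution 0.5, 2000 variable genes, 30 components). Clusters were named from marker lists, so names are rebuilt here. Markers at 1.5 times their mean in other clusters were called raised, and a cluster stayed unnamed with under 3 raised markers or leading genes of another class. Doublets were kept, and removal of 60 and 168 cells with the highest Scrublet scores was an alternative. Thinning left out 6 and 21 shallower cells.

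UMI counts were summed per mouse and class and tested with edgeR 4.0.16 in R 4.3.3 (TMM scaling, filterByExpr, Benjamini-Hochberg adjustment over all genes), without a block, since the methods of the study name none. The steps were tested on simulated data. Intervals and floors cover counting error only. Classes of 1 mouse are paired by the animal. Checked over genes, deviations of the same mouse correlated at 0.287, 0.184, 0.142, 0.0926 and 0.527 in the 5 comparisons, in the order of the report. DESeq2 1.42.0, its size factors in edgeR, other filters, resolutions and tdTomato thresholds, the mouse as a block and leaving out a mouse were the alternatives. Named were the 10 genes, the 3 highest and 3 lowest called genes of the adhesion lists in each comparison, and the 3 nearest genes by correlation. Members, lists and tests were chosen with earlier results of these data known.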

Additional observations from a re-analysis of the deposited data

How the results depend on the processing

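The number of the 10 genes called stayed within 1.5 times its value in all 43 alternative counts, each of 1 comparison in 1 setting. It was 3 to 5 in preosteoblast-like cells, 4 or 5 in periosteal-like cells, 9 in endothelial-like cells, 4 to 7 between the endothelial types, and 0 by tdTomato. Of 495 alternative fold changes, 12 turned direction, all of genes without a call, and the cause was not tested. Against reticular-like cells, Cdh5 in preosteoblast-like cells became -0.134 with the looser cell filter and -1.35 without Mouse #2 (1.17 without Mouse #1). In periosteal-like cells, Cdh5 was 0.0433 without Mouse #1 and -4.39 without Mouse #2, and Cdh11 was 0.0141 and -0.168. Sele there became 1.03 in DESeq2, from 0 UMIs against 1 and 1. Jam3 between the endothelial types became -0.441 without Mouse #1, and 1.53 without Mouse #2. By tdTomato, Jam2 became 0.0265 at resolution 1.0, and Alcam and Jam3 became 0.0625 and -0.025 at the 95th percentile. Without Mouse #2, Alcam, Jam2 and Jam3 were 0.0979, 0.241 and -0.0216 by tdTomato, and without Mouse #1 they were -0.294, -0.426 and 0.0393. Of 180 alternative levels 30 moved beyond the spread between mice, and so did 89 of 100 alternative shares of cells with a UMI, taken at 1000 UMIs or without thinning.

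The comparison by tdTomato depended most on the fit: over all genes 0 were called by edgeR, 525 with the replicate block, 49 with no filter on low counts, 8 in DESeq2 and 1 at the 95th percentile, with none of the 10 genes among them. Between the endothelial types 1771 genes were called, 695 with no filter on low counts and 1095 in DESeq2. The replicate block added Cdh2 and Cdh11 between the endothelial types and changed no other call of the 10 genes. Under the looser cell filter the endothelial cells formed 1 cluster, so that comparison could not be made. Without a mouse there is no test. Values are shallow in the Cxcl9-led cluster (176831 and 180394 UMIs in all), in sinusoidal-type cells (465356 and 428808) and in osteoblast-like cells of Mouse #1 (522442).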
